A study of Mus musculus with 6 samples.

Results

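Synapse-annotated genes were followed in mouse lateral ventricular choroid plexus. They were taken from 3956 transcript clusters, the sets of exon probe sets that each measure a gene, listed in either of a pair of deposited tables. A cluster was a member when its cellular component annotation contained the letters synap, which 101 clusters (2.55% of all) did. Of these, 34 were then left out, 20 for channel activity, 11 for cell adhesion and 3 for a symbol of the solute carrier or Vamp families, which left 67 members. Within the tables the rule used annotation and symbol and no measured value. The tables themselves had been selected by the authors on measured values, and the members were chosen with earlier results of these data known. The label of a synaptic gene did not hold for 6 members, whose only matching term was the synaptonemal complex of meiotic chromosomes or the immunological synapse of lymphocytes. They are described last.

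RNA came from pooled choroid plexus of Swiss Webster mice, 3 pools from embryos at embryonic day 15 (E15) and 3 from adults, each on an Affymetrix mouse exon array. Per the labels, an E15 pool held 30 pups of mixed sex and an adult pool 10 females, whereas the supplementary checklist of the study gives other pool sizes and unsexed embryos. No animal was treated or carried an engineered allele, so age is the contrast, and sex differs with it. The plexus was taken whole, so each pool held epithelium, blood vessels and stroma, and the RNA was amplified in 2 rounds before labelling. The 3 arrays of an age were merged by the authors into 1 value, so no error, spread or test can be drawn from the merged values used here (values per array were not analysed), and the number of arrays limits precision. Values are on the log2 scale and centred for each cluster, so they carry the difference between the ages and no level of expression. Each difference below is adult minus E15.

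A chemical synapse passes a signal when vesicles loaded with transmitter fuse with the presynaptic membrane. Fusion is carried out by SNARE proteins and triggered by calcium acting on synaptotagmins, at an active zone built from large scaffold proteins. On the other side, receptors are held by scaffolds of the postsynaptic density, next to kinases and other enzymes. The choroid plexus is a secretory epithelium that makes cerebrospinal fluid. Nerve fibres reach its stroma and vessels, and many of the proteins annotated to synapses also serve vesicle traffic and membrane anchoring in other cells.

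Upstream sequence is shown for 4 members that carry the annotation term synaptic vesicle, since 14 of the 17 members with that term were higher in the adult. Syn1, Syp and Sv2a are described below with the vesicle proteins and Syt1 with the release machinery. Promoter windows from RefSeq (GRCm38.p6) matched 48 of the 67 members by symbol. The 250 bases before the transcription start are printed 5′ to 3′ on the strand of the gene, for Syn1 (chrX:20920919-20921168, minus strand), Syt1 (chr10:109010976-109011225, minus strand, the first of its 2 windows), Syp (chrX:7638330-7638579, plus strand) and Sv2a (chr3:96180977-96181226, plus strand). Capitals mark a match on either strand to TTCAGCACC or GGACAG, the left and right parts of the RE1 element that is bound by the neuronal gene repressor REST, or to TGACGTCA, the cyclic AMP response element. The motifs do not overlap each other in these windows.
Syn1: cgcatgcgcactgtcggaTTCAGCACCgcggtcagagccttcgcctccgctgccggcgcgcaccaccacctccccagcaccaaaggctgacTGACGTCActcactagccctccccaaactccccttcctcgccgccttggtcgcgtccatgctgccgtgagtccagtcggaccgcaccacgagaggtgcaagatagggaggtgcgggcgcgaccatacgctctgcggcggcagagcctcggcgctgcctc
Syt1: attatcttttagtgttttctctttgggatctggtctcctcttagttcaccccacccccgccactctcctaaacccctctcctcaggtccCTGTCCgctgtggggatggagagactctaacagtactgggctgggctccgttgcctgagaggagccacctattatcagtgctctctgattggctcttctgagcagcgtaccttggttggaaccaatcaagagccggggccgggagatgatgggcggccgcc
Syp: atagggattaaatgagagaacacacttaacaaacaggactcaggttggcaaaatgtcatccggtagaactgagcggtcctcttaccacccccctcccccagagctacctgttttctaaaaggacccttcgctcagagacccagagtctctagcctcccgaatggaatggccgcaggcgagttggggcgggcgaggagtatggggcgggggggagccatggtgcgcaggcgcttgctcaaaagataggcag
Sv2a: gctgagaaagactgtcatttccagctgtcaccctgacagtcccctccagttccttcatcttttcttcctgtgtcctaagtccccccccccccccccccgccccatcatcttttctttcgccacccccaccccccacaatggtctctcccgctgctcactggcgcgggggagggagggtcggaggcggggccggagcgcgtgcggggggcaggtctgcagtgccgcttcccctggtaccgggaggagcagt

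In the Syn1 window the capitals are TTCAGCACC followed by TGACGTCA, and in the Syt1 window they are CTGTCC, which is GGACAG on the other strand. TTCAGCACC was found in 0.301% of all 32851 windows of this length, and among members in Syn1 and Dtnb. GGACAG was found in 18.7% of all windows and in 16 of the 75 windows of members (21.3%), which belong to 15 genes. TGACGTCA was found in 1.55% of all windows and, among members, in Syn1. The Syp and Sv2a windows held none of the 3 motifs. A match is a description of letters in the window and not a binding site.

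Across the 67 members, 21 (31.3%) were at least 2-fold higher in the adult, where 22.9% of all clusters were. At E15, 7 members (10.4%) were at least 2-fold higher, where 24.4% of all clusters were. The higher value was the adult one, by any size, in 43 members (64.2%), against 45.9% of all clusters. The median difference was 0.37 for the members and -0.16 for all clusters. Members ranged from -2.02 for Ephb2 to 3.15 for Nos1, with quartiles at -0.47 and 1.28. In bulk tissue, fewer cells of a type and less RNA per cell cannot be told apart, so none of these differences can be read as a difference per cell.

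The tables were themselves selected, which bears on how these counts can be read. The gene-level table holds only clusters at least 2-fold apart that passed the authors' expression filter and corrected p, so the 25 members in it had to differ. The splicing index table was selected by the authors on the splicing index, a score for exons that depart from their gene, with no minimum on the difference between ages. It lists 61 of the members, 42 of them in no other table. Within it, 17 members (27.9%) were at least 2-fold higher in the adult and 5 (8.20%) at E15, where 17.6% and 20.5% of its 3369 clusters were. Among the 42 members in the splicing index table alone, 3 were at least 2-fold higher in the adult and 0 at E15, against 1.16% and 1.95% of its 2151 such clusters.

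**Figure D1:**
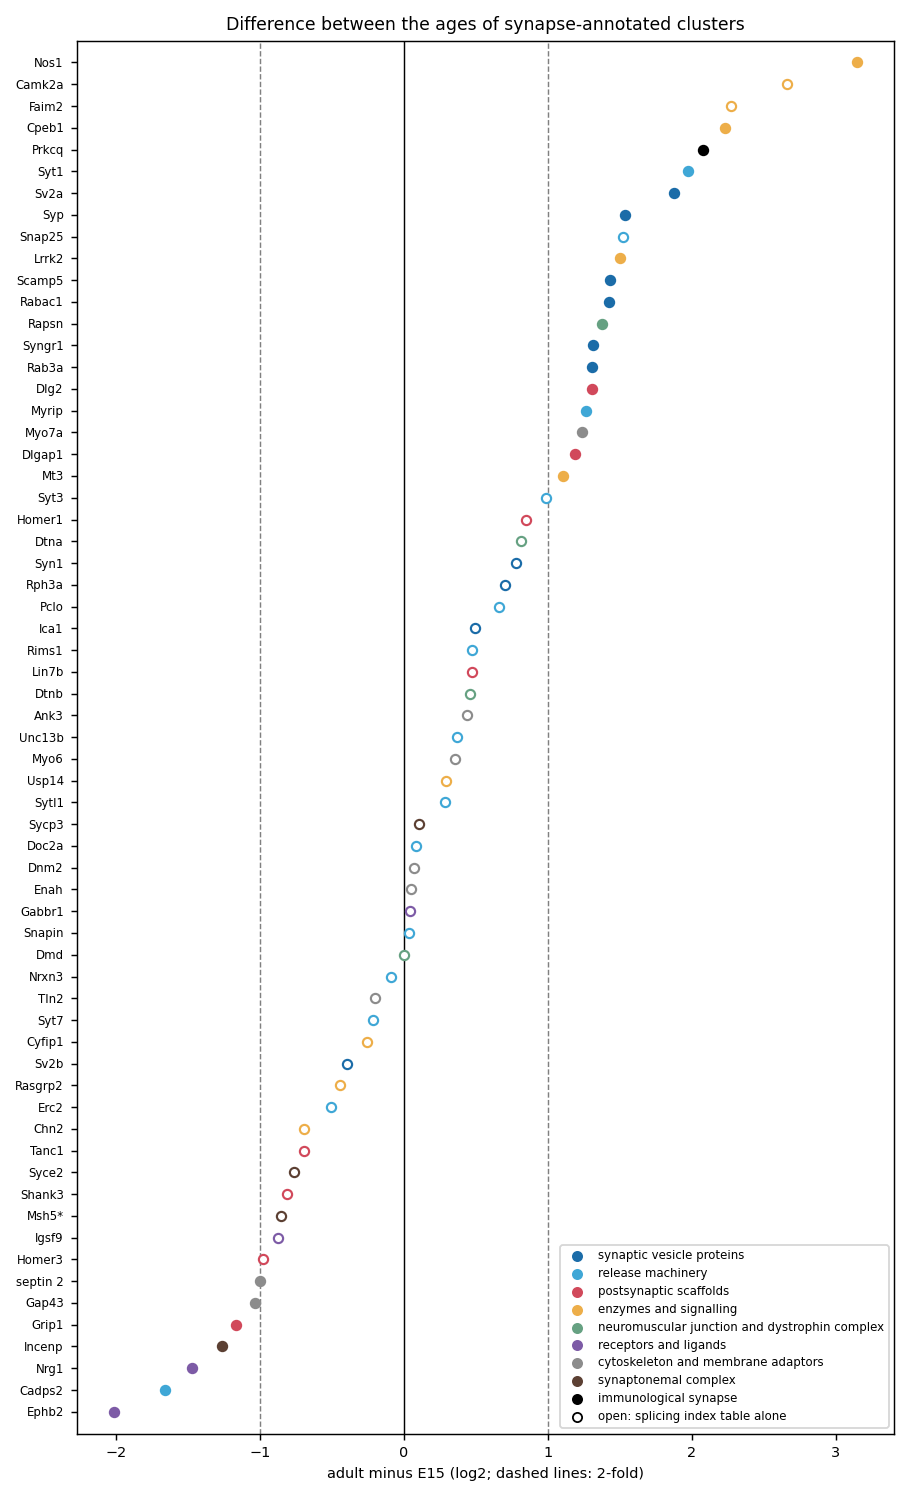
Difference between the ages (adult minus E15, log2, x axis) for the members reported here, 1 point per gene, coloured by role, with filled points for members in the gene-level table and open points for those in the splicing index table alone. The asterisk marks a cluster with several gene symbols. Points right of the upper dashed line reach 3.15 for Nos1, and the 7 left of the lower one reach -2.02 for Ephb2.

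Members were sorted into 9 roles after values were seen, so counts by role only describe that sorting. For the counts by role and by list below, the shares over all clusters were 22.9% in the adult and 24.4% at E15. The 11 synaptic vesicle proteins had a median difference of 1.31. Of these, 6 were at least 2-fold higher in the adult and 0 at E15. Sv2a, a vesicle membrane glycoprotein that is the target of the anti-epileptic levetiracetam, was at 1.03 in the adult and -0.85 at E15, a difference of 1.88 (3.67-fold). Synaptophysin (Syp), the major membrane protein of small synaptic vesicles, was at 1.01 and -0.53, a difference of 1.54 (2.90-fold). The adult value was the higher in both, and both had passed the authors' gene-level criteria.

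Differences between 1.31 and 1.43 were found for the other 4. Scamp5, a secretory carrier membrane protein, was at 0.83 in the adult and -0.61 at E15. Rabac1, which binds prenylated Rab proteins, was at 0.68 and -0.75. Syngr1, a synaptogyrin, stood at 0.65 and -0.66, and Rab3a, the small GTPase that docks vesicles before fusion, at 0.69 and -0.62. In each of the 4 the value lay above the centre in the adult and below it at E15.

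The remaining vesicle proteins were under 2-fold. Synapsin 1 (Syn1), which tethers vesicles to actin in the reserve pool, was at 0.67 in the adult and -0.11 at E15, a difference of 0.78. Rabphilin (Rph3a), an effector of Rab3a, differed by 0.70, and Ica1, an islet cell autoantigen found on vesicles, by 0.49. The sign was the opposite for Sv2b, at -0.39. The vesicle glycoproteins Sv2a and Sv2b thus stood 2.27 apart in their differences.

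The 14 genes of the release machinery were more mixed, with a median of 0.33. Of these, 3 (21.4%) were at least 2-fold higher in the adult, near the share over all clusters, and 1 (7.14%) at E15. Synaptotagmin 1 (Syt1), the calcium sensor of fast release, was at 1.35 in the adult and -0.62 at E15, a difference of 1.97 (3.92-fold). Snap25, a SNARE of the presynaptic membrane, was at 1.26 and -0.26, a difference of 1.52 (2.87-fold), in the splicing index table alone. Myrip, which links Rab27 on secretory granules to myosin, was at 0.57 and -0.69 (1.26). Myrip and its partner Myo7a, both in the gene-level table, are also known from melanosomes and other granules outside neurons.

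The exception at E15 was Cadps2, which primes dense-core vesicles for calcium-dependent secretion. It was at -0.83 in the adult and 0.83 at E15, a difference of -1.66 (3.16-fold). Among all members only Ephb2 lay further toward E15.

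Several active zone proteins are among the members. The scaffold Piccolo (Pclo) differed by 0.66, Rims1 by 0.48 and the priming factor Unc13b by 0.37, while Erc2, another active zone scaffold, was at -0.50. Among synaptotagmins, Syt3 was at 0.99, just under 2-fold, and Syt7, the slow calcium sensor, at -0.21. Sytl1 (0.28), Doc2a (0.08), Snapin (0.04) and the presynaptic adhesion receptor Nrxn3 (-0.09, 0.06 after re-centring as described below) completed the group.

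**Figure D2:**
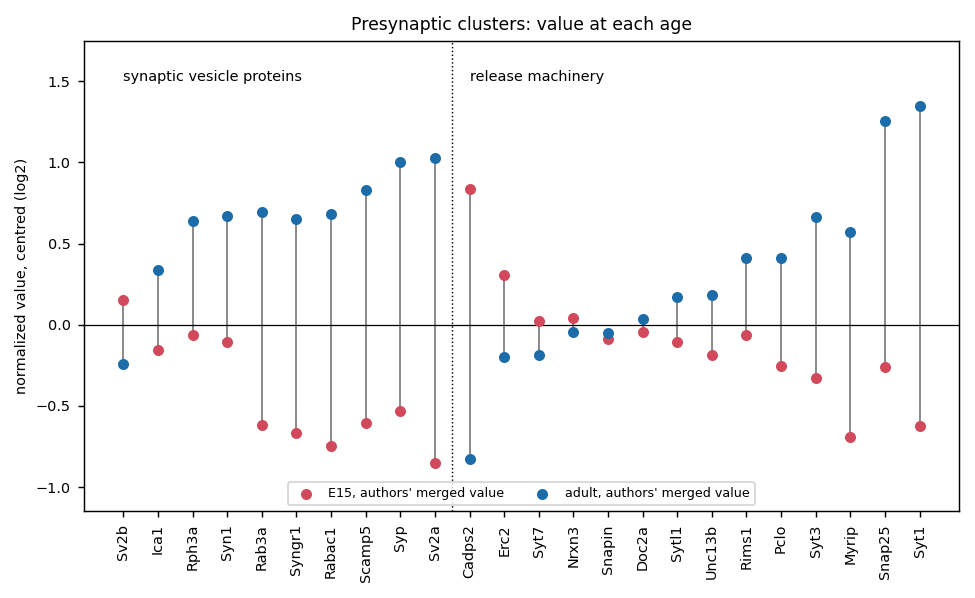
Value of each age (log2, centred per cluster, y axis) for the synaptic vesicle proteins and the genes of the release machinery reported here, with 1 authors' merged value per age and a line joining both. Adult values lie above E15 values from Ica1 to Sv2a and from Snapin to Syt1, and Cadps2 shows the widest gap in the other direction, -1.66.

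On the postsynaptic side the 8 scaffold proteins split evenly, with 4 higher at each age and a median of -0.11. Dlg2 (PSD-93), a membrane-associated guanylate kinase, was at 0.77 in the adult and -0.53 at E15, a difference of 1.30. Dlgap1, which bridges such guanylate kinases to Shank proteins, was at 0.77 and -0.42 (1.19). Grip1, which anchors AMPA receptors and in epithelia also the Fraser complex, was at -0.58 in the adult and 0.59 at E15, a difference of -1.17. These were the 3 scaffolds past 2-fold.

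The others were Homer1 (0.85), Lin7b (0.47), Tanc1 (-0.69), Shank3 (-0.81) and Homer3 (-0.98). Homer1 and Homer3 encode related adaptors that link metabotropic receptors to calcium stores. Their differences had opposite signs and stood 1.83 apart.

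The 10 enzymes and signalling proteins had a median of 1.30, with 6 at least 2-fold higher in the adult and 0 at E15. The largest difference of any member was that of neuronal nitric oxide synthase (Nos1), at 1.65 in the adult and -1.50 at E15, a difference of 3.15 (8.87-fold). It ranked 41 of 3956 from the adult end. Camk2a, the alpha subunit of the calcium and calmodulin-dependent kinase of the postsynaptic density, was at 2.23 in the adult and -0.43 at E15, a difference of 2.66 (6.33-fold). Of the members, only Nos1 differed by more.

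Faim2, an inhibitor of Fas-mediated cell death in neurons, was at 1.74 and -0.53 (2.27), and Cpeb1, which controls polyadenylation and translation of stored mRNA, at 1.16 and -1.06 (2.23). The kinase Lrrk2 was at 0.75 and -0.75 (2.83-fold). The metallothionein Mt3, which binds zinc, was at 0.54 and -0.56 (1.10). Of these 6 enzymes and signalling proteins, Camk2a and Faim2 were in the splicing index table alone. The remaining 4 were the proteasome-associated deubiquitinase Usp14 (0.29), the actin and translation regulator Cyfip1 (-0.26), the Rap activator Rasgrp2 (-0.44) and the Rac-specific chimaerin Chn2 (-0.69).

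Among 5 members of the neuromuscular junction and the dystrophin complex, 2 were at least 2-fold higher in the adult and 0 at E15, with a median of 0.82. Rapsyn (Rapsn), which clusters acetylcholine receptors in muscle, was at 0.79 in the adult and -0.58 at E15 (1.37). The dystrobrevins Dtna and Dtnb differed by 0.82 and 0.46. Dystrophin itself (Dmd) differed by -0.0024, or 0.15 after re-centring, so it stood near 0 beside its higher partners Dtna and Dtnb.

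The 5 receptors and ligands were the group furthest toward E15 of those with a synaptic role, with a median of -0.87, 0 at least 2-fold higher in the adult and 2 at E15. Ephb2, a receptor tyrosine kinase for ephrins that guides axons and shapes spines, was at -0.89 in the adult and 1.12 at E15, a difference of -2.02 (4.04-fold). Neuregulin 1 (Nrg1), the ligand of ErbB receptors, was at -0.78 and 0.70, a difference of -1.47 (2.78-fold). Both also act widely outside synapses in embryonic tissue. Igsf9 was at -0.87 and the GABA-B receptor subunit Gabbr1 at 0.04.

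Of 8 cytoskeletal and membrane adaptor proteins, 1 was at least 2-fold higher in the adult and 2 at E15. The unconventional myosin Myo7a was at 0.55 in the adult and -0.68 at E15 (1.24), and Myo6, another, differed by 0.36. Gap43, the growth cone protein of extending axons, was at -0.46 and 0.58 (-1.03). Septin 2, a filament-forming GTPase that also works in cytokinesis and at the base of cilia, was at -0.56 and 0.44 (-1.001). The differences of Ank3 (0.44), Dnm2 (0.07), Enah (0.05) and Tln2 (-0.20) were small.

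Around the 2-fold line, the 3 members just inside it toward the adult were Mt3 (1.10), Dlgap1 (1.19) and Myo7a (1.24), and the 3 just outside were Syt3 (0.99), Homer1 (0.85) and Dtna (0.82). Toward E15 the 3 just inside were septin 2 (-1.001), Gap43 (-1.03) and Grip1 (-1.17), and the nearest just outside was Homer3 (-0.98). At 1.5-fold, 27 of the 67 members were higher in the adult and 16 at E15, beside 31.5% and 36.8% of all clusters. At 3-fold, 7 of the 67 were higher in the adult and 2 at E15, beside 8.87% and 9.98% of all clusters. At 4-fold, 5 and 1 of the 67 were, beside 5.03% and 5.84%. The adult counts at these higher thresholds rest on few members and lie close to the shares over all clusters. Re-centring each age on the median of the joined tables adds 0.15 to every difference. Gap43 and septin 2 were then under 2-fold and Syt3 over it, which gave 22 members at least 2-fold higher in the adult and 5 at E15, among 1015 and 767 of all clusters.

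**Figure D3:**
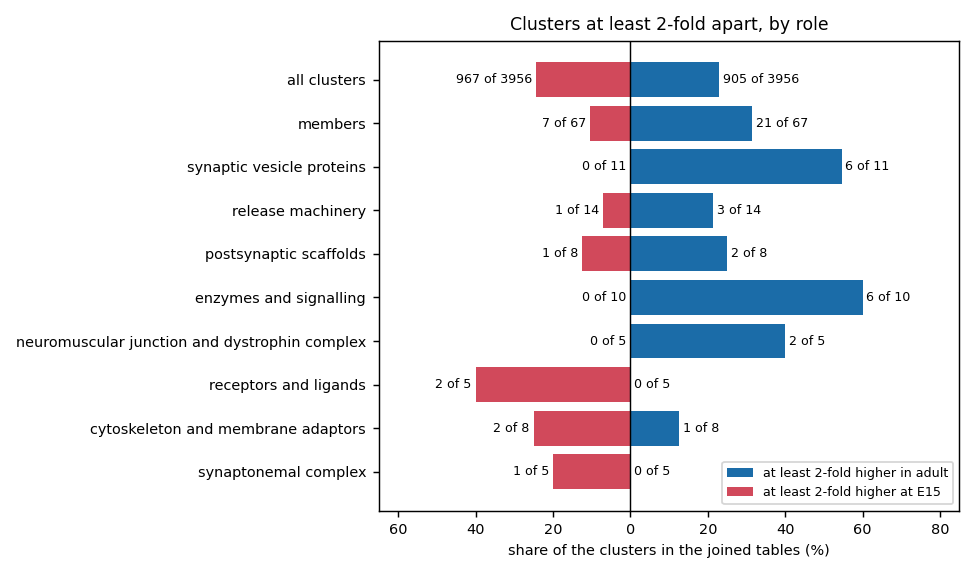
Share of clusters (%, x axis) at least 2-fold higher in the adult (bars to the right) and at E15 (bars to the left), for all 3956 clusters, the 67 members and each role with more than 1 member, with counts beside the bars. Vesicle proteins (6 of 11) and enzymes and signalling proteins (6 of 10) have 0 at E15, and receptors and ligands have 2 of 5 at E15 and 0 in the adult. Roles were assigned after values were seen. Cadps2, higher at E15, carries the term synaptic vesicle but is counted with the release machinery.

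The 6 members outside neural synapses went apart. The 5 annotated to the synaptonemal complex had a median of -0.85. Incenp, a chromosomal passenger protein needed in every mitosis, was at -0.72 in the adult and 0.54 at E15 (-1.26). The cluster shared by Msh5 and Ng23 was at -0.85, Syce2 at -0.76 and Sycp3 at 0.11. Of 15 genes found from a list of synaptonemal and meiotic or mitotic chromosome genes, 8 were at least 2-fold higher at E15 and 0 in the adult, with Top2a at -4.65 and Plk1 at -3.10. The member annotated to the immunological synapse was Prkcq, protein kinase C theta of T cell signalling, at 1.07 in the adult and -1.01 at E15 (2.08). Of 20 macrophage and leukocyte markers 9 were found, 4 at least 2-fold higher in the adult and 1 at E15, with a median of -0.15. The antigen presentation genes Cd74 and H2-Aa were at 3.16 and 2.53, the mannose receptor Mrc1 at -2.36 and the T cell kinase Lck at -0.54, and the part of leukocytes in the difference of Prkcq was not tested. Without these 6, the remaining 61 members had a median of 0.44, with 20 at least 2-fold higher in the adult and 6 at E15.

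Members were also counted by annotation term, and a member can carry several. Of 17 members with the term synaptic vesicle, 8 were at least 2-fold higher in the adult and 1, Cadps2, at E15, with a median of 0.99. For postsynaptic membrane the counts were 6 and 2 of 16, with a median of 0.42, and for synaptosome 2 and 1 of 12, with a median of -0.11. Members with a term not inferred electronically (40) had a median of 0.45 and the 27 with electronic terms only 0.28. Members in the splicing index table had a median of 18 probe sets, against 13 over the whole table.

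The values of both ages also differed in how they lay around the centre of their cluster. Where both lie equally far from it, their sum is 0, and the median size of the sum was 0.08 over all clusters and 0.12 over the members. How the authors set the centre is not stated. The sum for Camk2a was 1.79, the largest of all 3956 clusters. Faim2 followed with 1.21 (rank 4), Snap25 with 1.00 (rank 17), Syt1 with 0.73 (rank 34), Rph3a with 0.58 and Syn1 with 0.56. In these 6 the adult value lay further above the centre than the E15 value lay below it.

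Nos1, with the largest difference, had a sum of 0.14, and those of Lrrk2 and Syngr1 were -0.0034 and -0.016. Sums of at least 0.5 were found for 6 members (8.96%) and for 61 of all clusters (1.54%). Sums of -0.5 or less were found for 0 members and 35 of all clusters. Of the 20 clusters with the largest sums, 6 carried a synap term, 3 of them members.

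The 3 members with the largest sums, Camk2a, Faim2 and Snap25, were all outside the gene-level table. By merged values, 25 clusters in the splicing index table alone were at least 2-fold higher in the adult, without being among the clusters that met all of the authors' gene-level criteria. Which criterion each one missed, the filter on expression in all 3 arrays or the corrected p, cannot be read from the tables. Of these 25, 8 (32.0%) carried a synap term, against 23 of the 880 gene-level clusters higher in the adult (2.61%). The 8 included the members Camk2a, Faim2 and Snap25, and, left out by the rule, the AMPA and NMDA receptor subunits Gria1 (1.62), Gria2 (1.05) and Grin1 (1.26) and the vesicular glutamate transporter Slc17a7 (1.73). In the other direction, 1 of 42 such clusters carried a synap term (2.38%), Gabra2. Leaving out the 3 members, 18 of 64 were at least 2-fold higher in the adult, against 22.9% of all clusters.

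**Figure D4:**
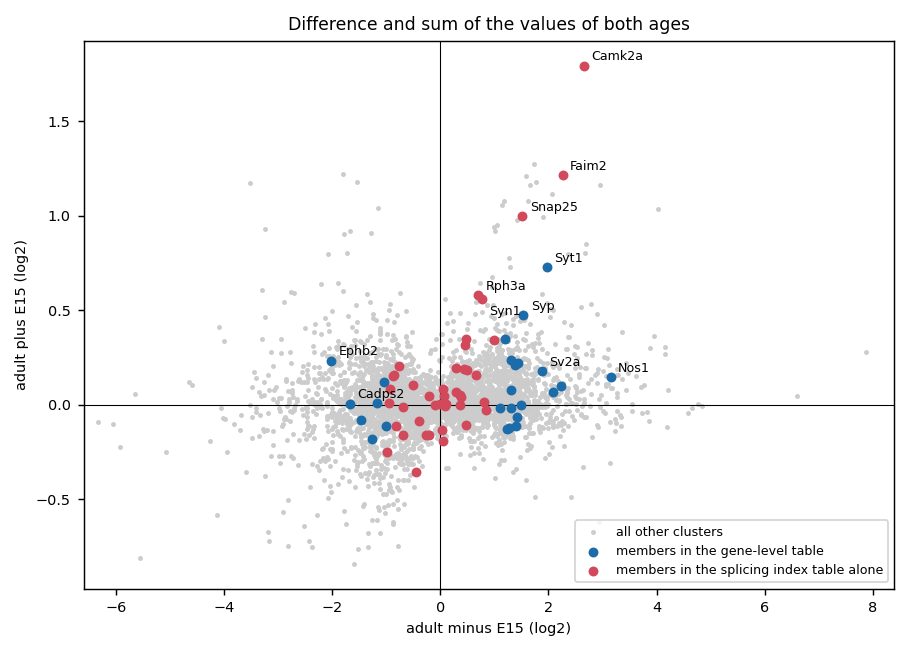
Difference (adult minus E15, log2, x axis) and sum (adult plus E15, log2, y axis) of the values of both ages, with 1 point per cluster, grey for all other clusters, blue for members in the gene-level table and red for members in the splicing index table alone. Camk2a lies highest of all points at 1.79, with Faim2 and Snap25 below it, while Nos1 lies near 0 at 0.14.

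Genes of the same pathways were then looked up by symbol, whether or not the rule took them. Only genes in these selected tables could be found. Of 56 genes listed for the active zone and release machinery, 19 were found. Of these, 4 were at least 2-fold higher in the adult and 3 at E15, against 22.9% and 24.4% of all clusters. The adult count was close to the share over all clusters. Beside the members, complexin 1 (Cplx1), which clamps the SNARE complex, was at 1.35 and the Rab3 GTPase-activating subunit Rab3gap1 at 1.17, while the Munc18 partner Apba2 was at -1.21. Of 42 vesicle genes 12 were found, 6 and 1 past 2-fold, with the phosphoinositide phosphatase Synj2 at 1.70 and the endophilin Sh3gl3 at -1.20. Of 70 postsynaptic density genes 19 were found, 8 and 1 past 2-fold, among them Camk2b at 1.59 and Cnksr2 at 1.14.

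Of 91 neurotransmitter receptors 23 were found, 9 at least 2-fold higher in the adult and 5 at E15. Within single receptor families the signs were mixed. Among GABA-A subunits, Gabra4 was at 2.97 and the cluster of Gabrb1 at 3.11, but those of Gabra3 and Gabrg1 were at -1.76 and -1.94. Of the nicotinic subunits Chrnb4 was at 2.79 and Chrna3 at -1.56, and Gria3 stood at -1.54 beside Gria1 at 1.62. The 20 channel clusters left out of the members had a median of 0.14, with 8 at least 2-fold higher in the adult and 5 at E15.

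Of 42 genes listed for the neuromuscular junction and the dystrophin complex, 16 were found, 6 of them members. Among the 16, 3 were at least 2-fold higher in the adult and 5 at E15, with a median of -0.55. Agrin (Agrn), the nerve-derived organiser of the junction that is also a basement membrane proteoglycan, was at -2.42, and the laminin receptor subunit Itga7 at 1.77.

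Markers of other cell types were looked up in the same selected tables. A marker that passed neither the gene-level nor the splicing index selection is absent. The counts and medians therefore cover found markers only, and unchanged markers can be missing. Of 37 neuron markers 15 were found, 6 of which are members, and 6 were at least 2-fold higher at each age. Those higher in the adult were Camk2a, Syt1, Slc17a7, Syp, Snap25 and the neuronal enolase Eno2 (1.25). Camk2a, Syt1, Syp and Snap25 are themselves members, and Slc17a7 carries a synap term and was left out by symbol. The adult side of the list thus largely repeats the synapse-annotated genes. Those higher at E15 were Dcx (-2.29) and Reln (-2.20), which mark migrating and early-born neurons, with Nefm (-1.71), Meg3 (-1.68), Uchl1 (-1.47) and Gap43. Of these, only Gap43 is a member. The list as a whole therefore had no single direction, with a median of -0.81.

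Of 23 astrocyte and oligodendrocyte markers 13 were found, 8 at least 2-fold higher in the adult and 4 at E15, with Aldh1l1 at 2.90, the myelin gene Mbp at 2.09, Gfap at 1.42 and Gja1 at -3.25. Of 24 neural progenitor markers 15 were found, 14 of them higher at E15, with 12 past 2-fold. Choroid plexus epithelium markers, which name the dissected tissue, were found for 14 of 30 genes, 8 at least 2-fold higher in the adult and 3 at E15, with a median of 1.86. They ranged from Wfikkn2 at -3.27 to Prlr at 7.87, and Kcne2 (-1.13) and the ciliogenesis factor Foxj1 (-1.02) were the others higher at E15. Mesenchyme markers were higher at E15 in 16 of the 16 found, and endothelium and mural markers in 9 of the 10 found. Because values are centred, no summed level of a marker list, and no marker at 0, can be read from them. The part of other cell types in the differences of the members was not tested.

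**Figure D5:**
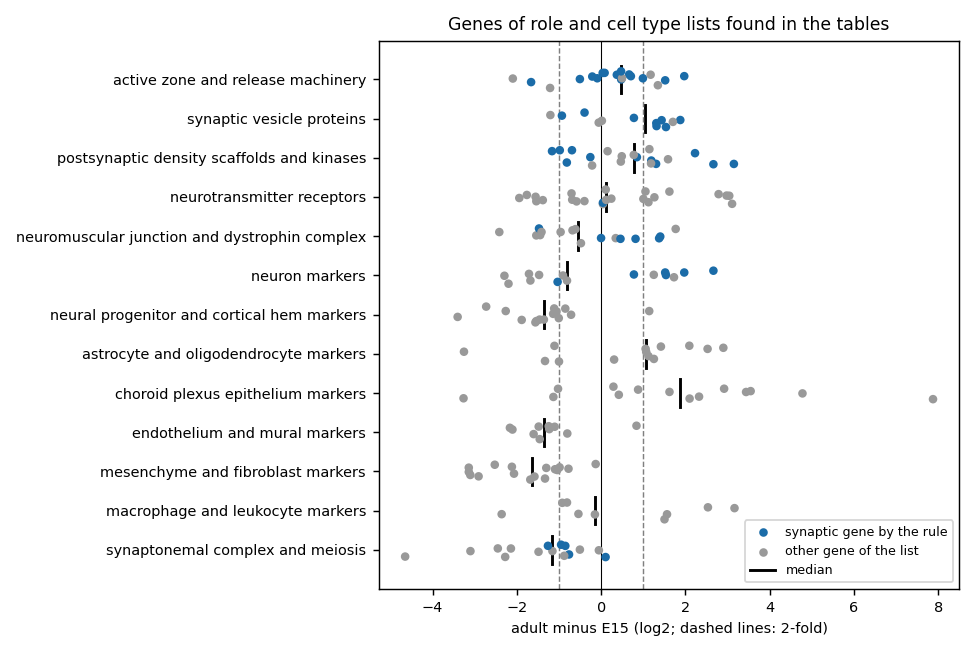
Difference between the ages (adult minus E15, log2, x axis) for each gene found from 13 lists of roles and cell types, 1 point per gene, blue for members and grey for other genes, with a bar at the median of each list. The medians of the vesicle proteins (1.04) and postsynaptic density genes (0.77) lie right of 0, with 4 of 12 and 6 of 19 genes to its left, and neuron markers spread from -2.29 to 2.66.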

How the data were processed

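Total RNA of pooled lateral ventricular choroid plexus (3 pools at E15, 3 adult) was hybridised to mouse exon arrays. Per the submitters' processing notes and the methods, the authors normalised the gene level with Affymetrix Power Tools by RMA with a per-chip median, merged the 3 arrays of an age and deposited log2 values centred for each cluster. The gene-level table was limited by the authors to genes in the upper range of expression in all 3 replicates, a corrected p of at most 0.05 and 2-fold. For the splicing index, per the study's checklist, exon values were normalised by PLIER, filtered on probe sets detected above background in both ages and tested by a splicing analysis of variance, with an index of at least 0.5 required. Versions and genome build are not given in the sources used here. Both tables also hold the authors' own fold changes, directions and splicing indices, which were not used, nor was the table of shared clusters. The number of probe sets of a cluster was read as deposited.

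The 2 tables were joined by cluster (values differed in 0 shared clusters), and adult minus E15 and 2 to its size were computed. No column used holds a single array (0 of them), so the planned limma fit was replaced by counts and medians beside those of all clusters. Named genes were the members at least 2-fold apart (up to 20 a direction by difference), members of the role lists and the 3 on either side of 2-fold, and the other members were named too, apart from a few that are counted but not reported here by name. The members and lists were chosen with earlier results of these data known, and the 9 roles, the sums of both values and the family pairs were chosen after values were seen. Alternatives were fold thresholds of 1.5, 3 and 4, narrower and wider annotation, single-symbol clusters, 1 cluster per symbol, re-centring, each table alone and, added after the data were seen, leaving out the 3 members past 2-fold outside the gene-level table. The member rule was tested on simulated data. Python 3.11.15, numpy 2.4.6, pandas 2.3.3, scipy 1.17.1 and matplotlib 3.10.9 were used.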

Additional observations from a re-analysis of the deposited data

How the results depend on the processing

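Of 13 alternatives run, 9 altered the members or their values and could move the median or the share of members higher in the adult. Under these 9 the median stayed above 0 and the share inside its Wilson interval at 95% (52.2% to 74.6%). The interval counts genes as if they were independent and does not cover replicates. The 9 largely drew on the same members, so a share inside it was likely beforehand and is a weak check. The counts moved by over 1.5 times mainly with the fold threshold. At 1.5-fold, 27 members were higher in the adult and 16 at E15, at 3-fold 7 and 2, and at 4-fold 5 and 1, with the shares over all clusters given above. With the excluded channels, carriers and adhesion genes kept, 31 of 101 were at least 2-fold higher in the adult and 16 at E15. The shares over all clusters were 22.9% and 24.4%. In the gene-level table alone the median of the members was 1.31, against -1.01 for all clusters of that table. It holds no cluster under 2-fold, which bears on the size of both medians and not on their sign. Re-centring turned the sign of Nrxn3 and Dmd, both near 0, and the other 65 members kept theirs. No paired analysis was possible because the columns used hold 1 merged value per age. For the same reason leaving out each array in turn and the replicate block were not run. With 1 merged value per age, a difference cannot be set against the spread between pools, and the centred values hold no signal level to set against background.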
